A study of Mus musculus with 6 samples.

Results

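The integrin chains of naive CD8 T cells were compared between cells with a bright and cells with a dim Nur77-GFP reporter. The chains were chosen by gene symbol: 10 integrin genes were looked for, and 9 of them were found among the 11162 genes of the expression table, 5 alpha chains (Itgae, Itga4, Itgal, Itga6 and Itgav) and 4 beta chains (Itgb7, Itgb1, Itgb2 and Itgb3). The remaining gene, Itgax, was not analysed here. The cells came from mouse spleen and carried the transgene Tg(Nr4a1-EGFP)GY139Gsat, which makes green fluorescent protein under the regulatory sequence of Nr4a1, the gene of the T-cell receptor-induced protein Nur77. All samples also carried the OT-I marker in their sort description, a transgenic T-cell receptor, and had been sorted as CD8-positive, CD44-low, CD62L-high and Qa2-high cells. The 2 groups, GFP-hi and GFP-lo, held 3 libraries each and differed by label in reporter brightness alone, with no treatment and no age given in the labels. Nothing states that the 3 libraries of a group came from separate mice, so all errors below describe the spread between these libraries, which may be technical.

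Integrins are cell-surface receptors built from 1 alpha and 1 beta chain, and a chain without a partner is poorly brought to the surface. Alpha E (Itgae, the protein CD103) pairs with beta 7 and binds E-cadherin on epithelium. Alpha 4 pairs with beta 7 to bind MAdCAM-1 in gut vessels and with beta 1 to bind VCAM-1. Alpha L and beta 2 form LFA-1, which binds ICAM proteins and holds T cells to the cells they scan. Alpha 6 pairs with beta 1 to bind laminin, and alpha V pairs with several beta chains, beta 1 and beta 3 among them, to bind matrix proteins and the latent form of transforming growth factor beta. Naive CD8 T cells of mice are known to carry CD103.

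The chains share short tails inside the cell, through which talin, kindlin and other proteins switch integrins on. The coding stretches of these tails are shown because they are what the chains have in common, whatever their RNA level, and because the genes of the proteins that bind there are compared further on. In the alpha chains the capitals mark the 5 codons of the GFFKR motif next to the membrane. Sequences run 5′ to 3′ along the coding strand of the longest protein-coding transcript in GENCODE M21 (mm10, GRCm38).
Itgae: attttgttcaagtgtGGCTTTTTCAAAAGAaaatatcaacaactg
Itga4: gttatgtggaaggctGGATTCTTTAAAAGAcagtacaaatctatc
Itgal: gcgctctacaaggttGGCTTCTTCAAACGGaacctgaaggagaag
Itga6: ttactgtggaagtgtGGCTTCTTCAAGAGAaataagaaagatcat
Itgav: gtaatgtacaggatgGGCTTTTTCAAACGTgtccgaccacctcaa

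The motif was found in all 5 alpha chains and was followed by 23 codons in Itgae, 25 in Itga4 and in Itgav, 46 in Itgal and 29 in Itga6. In each gene the stretch crosses an exon boundary. For Itgae, on the plus strand, it lies in exon 30 (chr11:73145640-73145651) and exon 31 (chr11:73147051-73147083). For Itga6, also on the plus strand, it lies in exon 24 (chr2:71849495-71849506) and exon 25 (chr2:71853534-71853566). The stretches of Itga4 (from chr2:79325683-79325694 to chr2:79326520-79326552), Itgal (from chr7:127330228-127330239 to chr7:127333452-127333484) and Itgav (from chr2:83802991-83803002 to chr2:83803240-83803272) also lie on the plus strand.

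In the beta chains the capitals mark the 4 codons of the NPxY-type motif nearest the membrane, the docking site of talin, in which the last residue may be Y or F.
Itgb7: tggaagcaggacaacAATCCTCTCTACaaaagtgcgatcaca
Itgb1: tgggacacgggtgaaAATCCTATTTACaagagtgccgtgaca
Itgb2: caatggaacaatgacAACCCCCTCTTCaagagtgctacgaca
Itgb3: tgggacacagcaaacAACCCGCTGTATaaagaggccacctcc

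The motif was followed by 29 codons in Itgb7 and by 15 in each of the other beta chains. The Itgb7 stretch lies on the minus strand, in exon 14 (chr15:102216472-102216480) and exon 15 (chr15:102216235-102216267). The other 3 lie on the plus strand, Itgb1 at chr8:128726178-128726186 and chr8:128732023-128732055, Itgb2 at chr10:77564793-77564804 and chr10:77565178-77565207, and Itgb3 at chr11:104665624-104665632 and chr11:104667080-104667112. RNA values were given per gene, so transcripts with different tails could not be told apart.

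Levels were given as RPKM, reads scaled to gene length and library size, which allows genes to be set side by side. Library depth, recovered from the spacing of low RPKM values, ran from 26170000 to 35940000 reads. By a rough conversion with the longest coding transcript, the values of the lowest chain, Itgav, rested on 594 to 749 reads and those of Itgb7 on 19909 to 31327 reads. The CD8 label held: the 7 T cell and CD8 markers summed to 1625 to 1738 RPKM in GFP-hi and to 1592 to 1649 RPKM in GFP-lo libraries, and Cd8b1 alone had means of 808 and 816 RPKM. CD103 and CD11c are also known on dendritic cells and CD103 on regulatory T cells. Of 11 dendritic cell markers 3 were analysed here, with sums of 2.54 to 3.0 RPKM in GFP-hi and 2.17 to 3.21 RPKM in GFP-lo libraries, and of 5 regulatory and CD4 T cell markers only Ctla4 was, at 1.63 to 3.09 and 1.07 to 1.85 RPKM. The defining markers Xcr1, Clec9a, Foxp3 and Cd4 were not analysed here, so the part of such cells in the values was not tested. Of 6 B cell markers 3 were analysed here, with sums of 12.6 to 14.2 RPKM in GFP-hi and 11 to 11.5 RPKM in GFP-lo libraries. These sums were nearly all Cd79b, with means of 13.1 and 10.8 RPKM. Ms4a1 averaged 0.362 and 0.355 RPKM and Cr2 0.127 and 0.164 RPKM. Of 8 myeloid markers only Cd68 was analysed here, at 1.18 to 1.69 and 1.34 to 2.26 RPKM. The part of B cells and myeloid cells was not tested either. In bulk samples, fewer cells that express a gene and less of its RNA per cell cannot be told apart.

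In both populations the order of the chains was Itgb7, Itgb2, Itgal, Itgae, Itgb1, Itga4, Itga6, Itgb3 and Itgav, from the highest to the lowest mean RPKM. The libraries of neighbouring chains in this order did not overlap, with 1 exception, Itga6 and Itgb3 in GFP-hi cells. Itgb7 was above 99.7% of all listed genes by its mean RPKM over the 6 libraries, Itgb2 above 99.1%, Itgal above 97.9% and Itgae above 93.9%, whereas Itgav was above 32.2%. The integrin pool of these cells was thus made up, at the RNA level, mainly of the chains of LFA-1 and of alpha E beta 7.

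**Figure D1:**
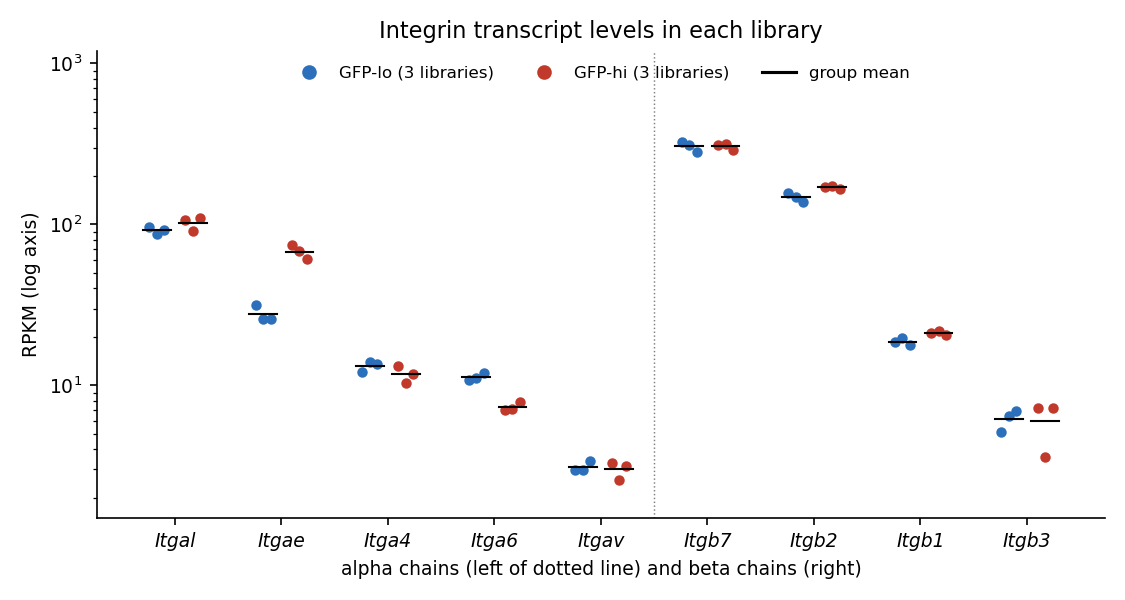
RPKM on a log axis of each integrin chain in the 3 GFP-lo (blue) and 3 GFP-hi (red) libraries, with bars at group means. Itgae points of GFP-hi cells lie between 60.7 and 73.9 RPKM, above those of GFP-lo cells, Itga6 points lie lower in GFP-hi cells, and the remaining chains lie close together.

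The alpha E chain had the largest difference of the 9. Itgae (Entrez 16407, chr11:73090505-73147449) measured 73.9, 67.9 and 60.7 RPKM in the GFP-hi libraries, against 31.6, 25.9 and 25.9 RPKM in the GFP-lo libraries. Every GFP-hi library lay above every GFP-lo library, and the lowest GFP-hi value was well clear of the highest GFP-lo value. The ratio of the group means was 2.42, and the difference in log2(RPKM + 1), GFP-hi minus GFP-lo, was 1.25 (standard error 0.098, 95% interval 1.02 to 1.48). The chains were chosen with this difference known, so their values are descriptions with no test attached. As a description of its place only, the Itgae difference ranked 11th by size beside the 230 genes of the whole table higher in GFP-hi cells at an adjusted p under 0.05 (limma). The gene Haspin, which encodes a kinase of mitosis, lies within Itgae on the opposite strand, and no exon of it overlaps an exon of Itgae. Haspin averaged 6.14 ± 0.791 RPKM in GFP-hi cells, against 4.52 ± 0.414 RPKM in GFP-lo libraries (SD, n = 3 each), a log2 difference of 0.37 that did not pass the threshold (limma, adjusted p = 0.078).

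Its partner chain had no such difference. Itgb7 (Entrez 16421, chr15:102215994-102233405) measured 310.3, 315.8 and 288.7 RPKM in the GFP-hi libraries, against 324.9, 309.6 and 283.5 RPKM in the GFP-lo libraries. The groups overlapped across their whole range. The log2 difference was -0.0038 with a 95% interval from -0.16 to 0.16. Beta 7 RNA was in excess of the RNA of both its alpha partners in every library.

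The other alpha partner of beta 7 and beta 1, alpha 4, had no clear difference. Itga4 (Entrez 16401, chr2:79255426-79333114) measured 13.2, 10.3 and 11.7 RPKM in the GFP-hi libraries, against 12.1, 13.9 and 13.5 RPKM in the GFP-lo libraries. The groups overlapped, and the log2 difference was -0.16 (standard error 0.092, 95% interval from -0.37 to 0.056). It was -0.075 without GFP-hi replicate 2, which had the lowest value, and -0.038 in the 4 libraries with lower heat-shock genes. Itga4 has the longest coding transcript of the 9 chains, 9767 bases, and GFP-hi replicate 2 was the library with lower values for long transcripts (given with Itgav and Itgb3). The annotation places 1124 bases of Itga4 exons under exons of Cerkl on the opposite strand. Since the strand used in counting is not given in the sources used here, reads of these genes may be mixed. Cerkl was listed at 0.578 to 0.690 RPKM.

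The laminin receptor chain alpha 6 went the other way from alpha E. Itga6 (Entrez 16403, chr2:71786886-71858427) measured 7.05, 7.12 and 7.82 RPKM in the GFP-hi libraries, against 10.8, 11.04 and 11.8 RPKM in the GFP-lo libraries. All 3 GFP-hi libraries lay below all 3 GFP-lo libraries. The log2 difference was -0.56 (standard error 0.063, 95% interval -0.70 to -0.41). The ratio of the means was 0.652. As a description of its place only, Itga6 ranked 50th by size beside the 139 genes of the whole table lower in GFP-hi cells at an adjusted p under 0.05 (limma). It too was chosen with its difference known, so no test is attached.

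Beta 1, the common partner of alpha 4, alpha 6 and alpha V, was slightly higher in GFP-hi cells. Itgb1 (Entrez 16412, chr8:128685654-128733579) measured 21.01, 21.8 and 20.4 RPKM in the GFP-hi libraries, against 18.6, 19.6 and 17.8 RPKM in the GFP-lo libraries. The groups did not overlap but were close, with a log2 difference of 0.17 (standard error 0.057, 95% interval from 0.035 to 0.30). Its direction was thus opposite to that of its partner Itga6.

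The chains of LFA-1 were among the most abundant and differed little. Itgal (Entrez 16408, chr7:127296139-127335137) measured 105.9, 91.3 and 109.4 RPKM in the GFP-hi libraries, against 96.2, 86.7 and 92.8 RPKM in the GFP-lo libraries. Itgb2 (Entrez 16414, chr10:77530329-77565708) measured 171.7, 174.3 and 166.6 RPKM in the GFP-hi libraries, against 157.2, 147.7 and 138.3 RPKM in the GFP-lo libraries. The groups overlapped for Itgal and did not for Itgb2. The log2 difference was 0.15 (standard error 0.079, 95% interval from -0.032 to 0.33) for Itgal and 0.21 (standard error 0.061, 95% interval from 0.069 to 0.35) for Itgb2. The lowest GFP-hi value of Itgal came from GFP-hi replicate 2, and without that library its log2 difference was 0.23. The longest coding transcript of Itgal measures 5222 bases.

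Alpha V and beta 3, which together bind vitronectin and other matrix proteins, were the lowest chains. Itgav (Entrez 16410, chr2:83722303-83806917) measured 3.27, 2.57 and 3.17 RPKM in the GFP-hi libraries, against 2.96, 2.97 and 3.37 RPKM in the GFP-lo libraries. Itgb3 (Entrez 16416, chr11:104608000-104670476) measured 7.19, 3.57 and 7.19 RPKM in the GFP-hi libraries, against 5.15, 6.42 and 6.95 RPKM in the GFP-lo libraries. Both overlapped between the groups, and the lowest value of each came from GFP-hi replicate 2. The log2 difference was -0.037 for Itgav (95% interval from -0.24 to 0.17) and -0.081 for Itgb3 (95% interval from -0.59 to 0.42), and without GFP-hi replicate 2 the sign of both was positive, at 0.044 and 0.20. In that library a gene's deviation from its own mean was lower for longer transcripts, with a Spearman rho of -0.523 over 8968 genes (against 0.0116 to 0.28 in the other 5 libraries), and the longest coding transcripts of Itgav and Itgb3 measure 7054 and 5784 bases. Across the same genes the log2 difference between the populations had a Spearman rho of -0.287 with transcript length. The part of transcript length in the values of Itga4, Itgal, Itgav and Itgb3 was not tested. All 8 platelet markers looked for, a cell known for beta 3, were not analysed here. The exons of Itgav also share 634 bases with Gm13684 on the opposite strand.

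Of the 9 chains, all of which passed the filter on low values, 1 was higher and 1 lower in GFP-hi cells at an adjusted p under 0.05 in the fit over the whole table (limma), and 7 did not pass. Over the whole table, 3.95% of 9351 genes tested passed, 2.46% as higher and 1.49% as lower. Groups did not overlap for 3 chains that were higher (Itgae, Itgb1 and Itgb2) and 1 that was lower (Itga6), and for 17.1% and 9.84% of all genes tested. Since the chains were chosen with these differences known, nothing is read from the counts. The median log2 difference of the 9 chains was -0.0038, beside 0.018 for all genes tested. Over 18 alternative fits the log2 difference ran from 1.18 to 1.34 for Itgae and from -0.61 to -0.51 for Itga6. With array quality weights 4 chains passed, Itgal and Itgb2 being the added ones.

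**Figure D2:**
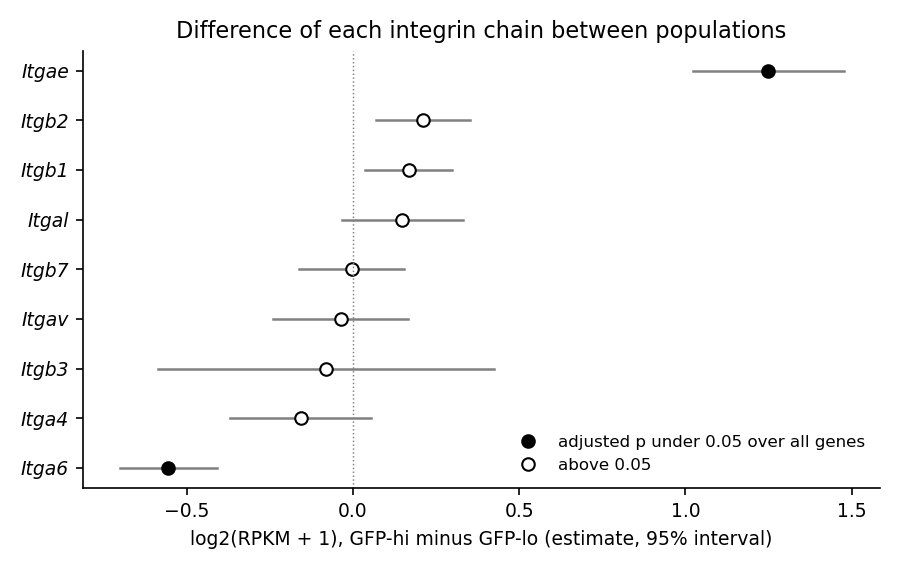
Difference in log2(RPKM + 1) between GFP-hi and GFP-lo cells for each chain, with the 95% interval from limma; filled points passed an adjusted p of 0.05 over all genes. Itgae lies at 1.25 and Itga6 at -0.56, and the points of the other 7 chains lie between -0.16 and 0.21.

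Libraries also fell into divisions that cut across the populations. The heat-shock genes Hspa1a and Hspa1b were at 1100 to 2133 RPKM in replicate 2 of both groups and at 152 to 503 RPKM in the other 4 libraries. In those 4, the log2 difference was 1.197 for Itgae and -0.55 for Itga6. Reads on 41 genes of nasal receptors, which T cells are not known to use, had a median of 0.037 and 0.038 RPKM in GFP-hi replicate 2 and GFP-lo replicate 1 and of 0.263 to 0.583 RPKM in the other 4 libraries, where the log2 difference was 1.34 for Itgae and -0.56 for Itga6. Of 20 heat shock and dissociation genes tested, 16 had a negative log2 difference between GFP-hi and GFP-lo, beside 44.5% of all genes tested. Hspa1a and Hspa1b, which are among them, moved together by library, so the 16 are not separate observations. The median was -0.30 (0.018 over all genes tested). The summed level of the list was 3495 to 7724 RPKM in GFP-hi and 4559 to 8667 RPKM in GFP-lo libraries. Of these genes 1 passed, beside 3.95% of all genes tested. It was Socs3, a suppressor of cytokine signalling, which was lower in GFP-hi cells (log2 difference -0.93, limma adjusted p = 0.021). The part of these genes in the integrin differences was not tested.

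A ratio of an alpha to a beta chain within a library does not depend on how the library was scaled. The Itgae level was 23.8%, 21.5% and 21% of the Itgb7 level in the GFP-hi libraries and 9.74%, 8.38% and 9.14% in the GFP-lo libraries. The mean log2 ratio was -2.18 ± 0.096 in GFP-hi and -3.46 ± 0.11 in GFP-lo cells (n = 3 each, SD), a difference of 1.28. Itga4, the competing partner of beta 7, stayed at 3.27% to 4.26% of Itgb7 in GFP-hi and at 3.71% to 4.78% in GFP-lo libraries, and these overlapped. The Itgae level was therefore 5.19 to 6.57 times the Itga4 level in GFP-hi and 1.87 to 2.62 times in GFP-lo libraries.

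Among the partners of beta 1, the Itga6 level was 33.5%, 32.6% and 38.3% of the Itgb1 level in GFP-hi and 58.3%, 56.2% and 66.5% in GFP-lo libraries. These did not overlap, and the mean log2 ratio was lower by 0.79 in GFP-hi, at -1.53 ± 0.12 against -0.73 ± 0.13 (SD, n = 3 each). The ratio of Itga4 to Itgb1 was also lower in all GFP-hi libraries, with 47.3% to 62.9% against 64.8% to 76.0%. Its lowest value came from GFP-hi replicate 2, the library with lower values for long transcripts. Without that library the difference in mean log2 ratio was -0.23 in place of -0.35. The longest coding transcripts of Itga4 and Itgb1 measure 9767 and 3815 bases, and the part of transcript length in this ratio was not tested. The ratios of Itgav to Itgb1, of Itgav to Itgb3 and of Itgal to Itgb2 overlapped between the populations. For LFA-1, Itgal was at 52.4% to 65.7% of Itgb2 in GFP-hi and at 58.7% to 67.1% in GFP-lo libraries. As the chains were chosen with their differences known, these ratios carry no test.

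**Figure D3:**
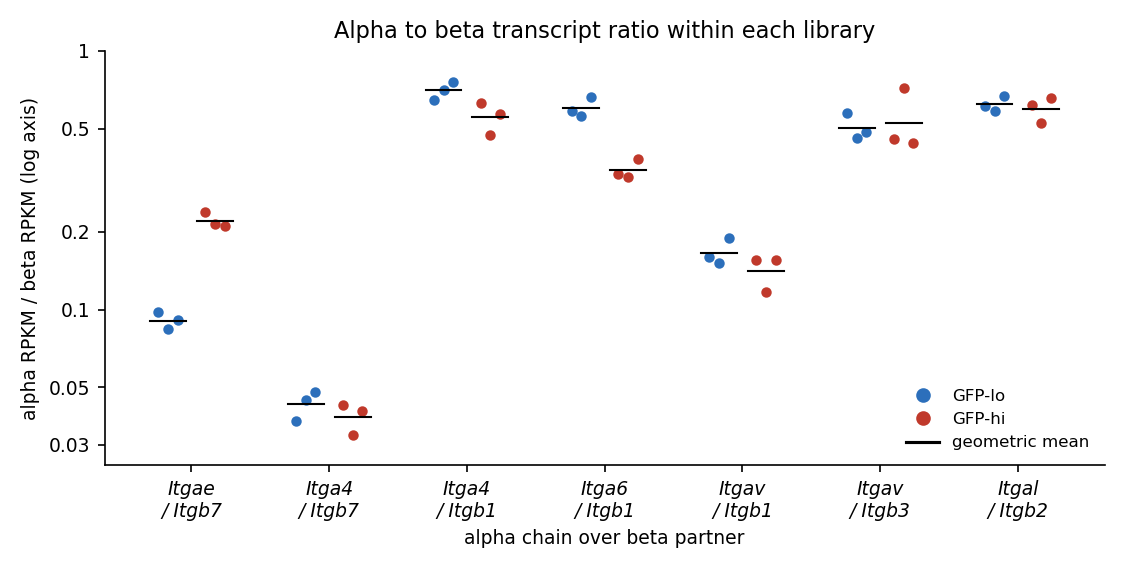
RPKM of an alpha chain divided by that of its beta partner in each library, on a log axis, with bars at the geometric means of the 3 GFP-lo (blue) and 3 GFP-hi (red) libraries. Itgae over Itgb7 is higher in GFP-hi, Itga6 and Itga4 over Itgb1 are lower, and the other 4 pairs overlap.

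The make-up of the alpha pool differed as well. Summed over the 5 alpha chains the level was 192 ± 12.1 RPKM in GFP-hi, against 147 ± 6.58 RPKM in GFP-lo cells, whereas the 4 beta chains summed to 503 ± 17.5 and 479 ± 29.9 RPKM (SD, n = 3 each). Itgae made up 35.2% ± 3.34 of the alpha sum in GFP-hi and 18.9% ± 1.55 in GFP-lo cells. Itga6 made up 3.83% ± 0.32 and 7.65% ± 0.518, and Itgal, the largest part in both, 53.3% ± 3.08 and 62.4% ± 0.636. Shares must sum to the whole, so a lower share of Itgal goes with the higher share of Itgae although its own level was not lower.

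Other genes of integrin biology were compared by lists written from general knowledge, though with earlier results of these data known. The counts and adjusted p values of these lists therefore place the genes in the whole table and are no independent support. Of 16 further integrin chains, 8 were analysed here and only Itga5, a partner of beta 1 that binds fibronectin, was high enough to be tested. Itga5 measured 3.15, 2.62 and 3.19 RPKM in the GFP-hi libraries, against 2.37, 1.73 and 2.16 RPKM in the GFP-lo libraries. All GFP-hi values were higher, but the log2 difference of 0.37 (standard error 0.10) did not pass (limma, adjusted p = 0.087). The other 7 of these chains had means of at most 0.426 RPKM over all libraries.

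Of the genes that activate integrins or bind their tails, 22 of 26 were tested and 0 passed in either direction (limma), with 5 at an unadjusted p under 0.05. Among all genes tested, 3.95% passed and 20.2% had an unadjusted p under 0.05. The counts in this and the following lists are to be read against these shares. With lists this short, nothing is read from a count of 0. The list ran from -0.14 to 0.24 with a median log2 difference of 0.027. Its most abundant genes were Rap1b, a small GTPase that drives integrin activation, with a log2 difference of 0.039 (limma, adjusted p = 0.80), Rassf5, which encodes the Rap1 effector RAPL (0.026, adjusted p = 0.83), and Flna, a filamin that competes with talin for beta tails (-0.14, adjusted p = 0.62). Of the signalling and cytoskeletal linker genes 18 of 27 were tested, 0 passed and 3 had an unadjusted p under 0.05, with a median of 0.029. Here Dock2, an activator of Rac in lymphocytes, had a log2 difference of -0.14 (adjusted p = 0.28), Vasp, an actin regulator, 0.10 (adjusted p = 0.33), and Fyn, a Src-family kinase, 0.17 (adjusted p = 0.12).

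Of 29 integrin ligand genes 4 were tested, 0 passed and 1 had an unadjusted p under 0.05, with a median of -0.0090. Icam1, a ligand of LFA-1, averaged 38.8 ± 1.92 RPKM in GFP-hi cells, against 45.0 ± 0.681 RPKM in GFP-lo cells (n = 3 each; SD; log2 difference -0.21, limma adjusted p = 0.080). Icam2, another ligand of LFA-1, differed by -0.0070 (adjusted p = 0.97) and Tgfb1, the growth factor that induces CD103, by 0.10 (adjusted p = 0.35). With quantile normalization, trimmed mean of M values scaling or array quality weights, 1 ligand gene passed as lower.

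Membrane proteins that associate with integrins included the 1 gene of these lists that passed. Cd81, a tetraspanin that organises receptors in the membrane, measured 1.75, 2.37 and 2.14 RPKM in the GFP-hi libraries, against 0.583, 0.722 and 0.893 RPKM in the GFP-lo libraries. The lowest GFP-hi value was above the highest GFP-lo value. Cd81 averaged 0.733 RPKM in GFP-lo libraries, under the filter of 1, and 2.08 RPKM in GFP-hi libraries. It thus entered the test only through its GFP-hi values. The ratio of the means was 2.84, which the log2(RPKM + 1) scale understates for so low a gene. The log2 difference was 0.83 (standard error 0.10, limma adjusted p = 0.0055), and it was 0.76 with an adjusted p of 0.068 in the 4 libraries with lower heat-shock genes. The limma adjusted p ranged from 0.00076 to 0.068 over its 17 alternatives and was 0.0078 without the filter. The other 12 of the 13 genes tested did not pass, and the median of the list was 0.043.

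Of the genes known as regulators of Itgae or as parts of the pathways that control it, 0 passed in either direction, beside 3.95% of all genes tested. Of 24 such genes 20 were tested, 7 had a positive and 13 a negative log2 difference (55.5% and 44.5% of all genes tested), 6 had an unadjusted p under 0.05 and the median was -0.10. Tgfbr2, a chain of the receptor for transforming growth factor beta, averaged 44.3 ± 1.01 RPKM in GFP-hi cells, against 51.7 ± 2.55 RPKM in GFP-lo cells (n = 3 each; SD; log2 difference -0.22, limma adjusted p = 0.075). Klf2, a factor of T-cell quiescence and trafficking, differed by -0.11 (adjusted p = 0.55) and Nfatc3, a calcium-regulated factor, by 0.0072 (adjusted p = 0.97). With quantile normalization 1 regulator passed as lower, and with array quality weights 1 passed in each direction.

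**Figure D4:**
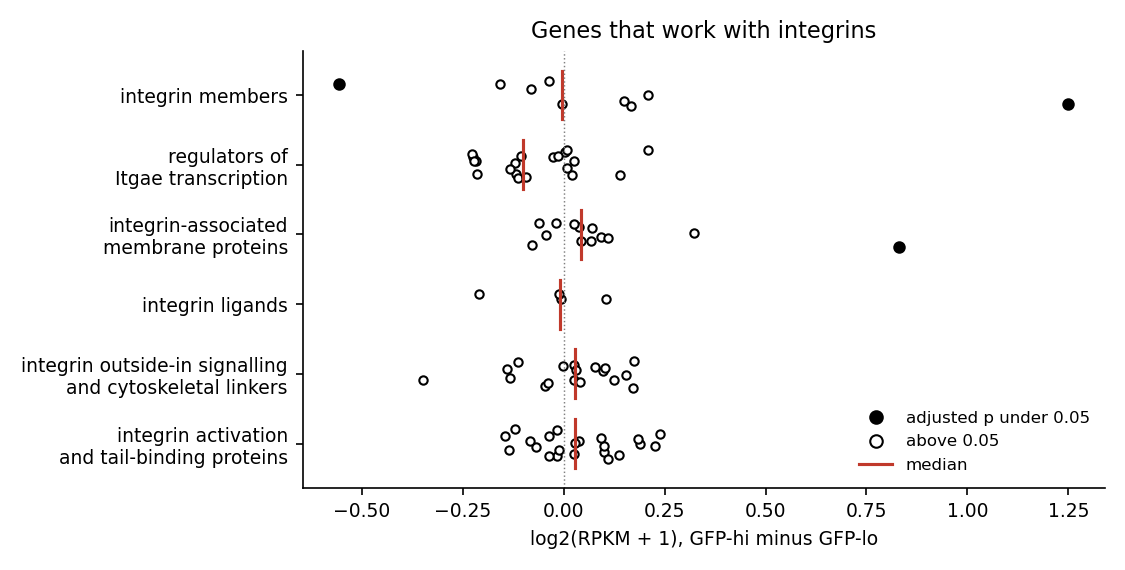
Difference in log2(RPKM + 1) between GFP-hi and GFP-lo cells for each tested gene of 5 lists and of the 9 integrin chains, with red bars at medians and filled points for an adjusted p under 0.05. Most genes lie near 0, and Itgae (1.25), Cd81 (0.83) and Itga6 (-0.56) are filled.

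The genes whose profile was most like that of Itgae were sought by the root mean square distance between log2(RPKM + 1) values over the 6 libraries, each gene centred on its own mean. The nearest was Izumo1r, which encodes folate receptor 4, at a distance of 0.0623, followed by Cd38 (0.124), an ectoenzyme, Cd160 (0.139), a receptor of the immunoglobulin family, Ndrg1 (0.144), Anxa2 (0.155), a membrane-binding annexin, and Smo (0.160), the signal transducer of Hedgehog receptors. The likeness holds on this scale, which understates changes of low genes. Mean RPKM in GFP-hi was 3.54 times that in GFP-lo for Izumo1r, 4.28 times for Cd38 and 3.83 times for Smo. In GFP-lo libraries Izumo1r averaged 0.959, Cd38 0.624 and Smo 0.54 RPKM, under the filter of 1. Izumo1r, Cd38 and Smo thus entered the search only through their GFP-hi values. The ratio was 2.05 for Cd160, 3.15 for Ndrg1 and 2.46 for Anxa2, beside 2.42 for Itgae. Izumo1r measured 3.72, 3.47 and 2.999 RPKM in the GFP-hi libraries, against 1.12, 0.938 and 0.822 RPKM in the GFP-lo libraries. Cd160 measured 27.8, 25.1 and 24.0 RPKM in the GFP-hi libraries, against 13.9, 12.2 and 11.3 RPKM in the GFP-lo libraries. As with Itgae, the first library of each group was the highest for both genes. They were picked for likeness to a gene that differs between the groups, so their own differences are no further support.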

How the data were processed

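RNA sequencing of 6 samples was analysed, 3 GFP-hi and 3 GFP-lo. Per the labels' protocols, sorted cells were lysed, and libraries were made with the SMART-seq v4 and Nextera XT kits. The authors deposited RPKM, per the file headers, with 1 column for each sample, matched by its title. STAR and mm10 are named in the submitters' processing notes. The counter, the annotation and the strand setting are not given in the sources used here.

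RPKM are not counts, so limma 3.58.1 (R 4.3.3; lmFit, eBayes with trend) was run on log2(RPKM + 1), a scale that understates changes of low genes, over the 9351 of 11162 genes whose RPKM averaged 1 or more. Tests were two-sided with Benjamini-Hochberg adjustment over these genes. On simulated data over 9351 genes, 96.7% of 200 genes changed by 1 on the log2 scale were recovered and 3.97% of calls were false. The simulated noise was independent between genes and held none of the divisions between libraries described above. These rates therefore check the code and may not hold for the real libraries. Depth was recovered from genes with 1 GENCODE M21 transcript; 87.4% to 90.5% of low values came out whole to a tolerance of 0.1 reads, where chance gives 20%. Reads include PCR copies, so the true error exceeds that of counting. Gene positions come from RefSeq (GRCm38.p6) and exons from GENCODE M21. RefSeq promoters of Itgae and Itga6 were not used here.

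The integrin chains and the lists were chosen with earlier results of these data known. Named are the 9 chains, per integrin list the genes that passed or otherwise the 3 most abundant tested genes, and the 6 nearest profiles. Haspin and Cerkl were named outside that rule for their position, and marker genes, Socs3 among them, in checks of cell type and handling. The list of tail-binding genes also held Filip1l, entered without a known role there. Alternatives changed the pseudocount, filter, scaling, variance model and libraries. Figures were drawn with matplotlib 3.10.9.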

Additional observations from a re-analysis of the deposited data

How the results depend on the processing

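The directions of Itgae, Itga6, Itga4, Itgal, Itgb1 and Itgb2 were the same in all 18 alternatives. Changing the filter, dropping the variance trend or using robust eBayes cannot alter a log2 difference, so these could not reverse a direction. All alpha to beta ratio differences, taken in 8 alternatives that left libraries out, moved by less than 1 pooled within-group SD. Of these, Itgav to Itgb3 (-0.24 to 0.18) and Itgal to Itgb2 (-0.13 to 0.032) changed sign. Differences near 0 changed sign. With 1 library left out, Itgb7 ran from -0.057 to 0.040, Itgav from -0.086 to 0.044 and Itgb3 from -0.22 to 0.20. Positive signs came, for Itgb7, when GFP-lo replicate 1 (0.040), replicate 2 of the same group (0.0056) or GFP-hi replicate 3 (0.035) was dropped, for Itgav when GFP-hi replicate 2 (0.044) or GFP-lo replicate 3 (0.0096) was, and for Itgb3 when GFP-hi replicate 2 (0.20) was. The 4 libraries richer in nasal receptor reads gave 0.015 for Itgb7, 0.019 for Itgav and 0.093 for Itgb3, the 4 with lower heat-shock genes 0.021 for Itgav and 0.23 for Itgb3, and array quality weights 0.011 for Itgav and 0.094 for Itgb3. The cause was not tested. Genes passing over the whole table numbered 369. They were 202 with a mean RPKM filter of 5, 1282 with array quality weights, 101 in the 4 libraries with lower heat-shock genes and 133 to 315 when 1 library was dropped. Array quality weights gave 4 integrin chains in place of 2, and 1 further integrin chain, 4 activation genes, 5 linker genes, 1 ligand gene and 2 regulators of Itgae in place of 0. The 4 libraries richer in nasal receptor reads gave 1 further chain and 2 activation genes. Dropping 1 library gave 0 to 1 activation genes (1 without GFP-hi replicate 2), quantile normalization 1 ligand and 1 regulator, and trimmed mean of M values scaling 1 ligand. Membrane proteins fell from 1 to 0 with the filter of 5, under which Cd81 is not tested, and in the 4 libraries with lower heat-shock genes. No paired fit was run, because the labels carry no replicate numbers and mark no libraries as belonging together. The replicate numbers used here follow the order of the samples and only name libraries. Replicate 2 of both groups was high in Hspa1a and Hspa1b, as given above. Whether libraries with the same number were handled together was not tested, and the unpaired fit takes no account of it.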

Other observations

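Integrin chains too low to be tested had levels that differed between libraries more than between populations. Itgb6, a chain of epithelial integrins, was listed at 0.488, 0.041 and 0.484 RPKM in the GFP-hi and at 0.035, 0.440 and 0.626 RPKM in the GFP-lo libraries. Itga1, a collagen receptor chain, was listed at 0.152, 0.011 and 0.177 RPKM and at 0.024, 0.185 and 0.346 RPKM, and Itga8 at 0.169, 0.012 and 0.261 RPKM and at 0.017, 0.148 and 0.313 RPKM. GFP-hi replicate 2 and GFP-lo replicate 1, the libraries with the fewest nasal receptor reads, had the lowest values of all 3 genes. Itgam, the alpha chain of a myeloid integrin, was at 0.160 to 0.366 RPKM in GFP-hi and 0.238 to 0.431 RPKM in GFP-lo libraries.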
